A study of Mus musculus with 32 samples.

Results

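The tumor necrosis factor (TNF) superfamily was followed through the mouse cochlea after noise, in ribosome-bound RNA of outer hair cells and of supporting cells and in RNA of the whole cochlea. Its members were taken by symbol: Tnf itself, and every gene whose symbol is Tnfsf (a ligand) or Tnfrsf (a receptor) followed by a number, with any further letters or digits of the systematic name. The rule found 32 members among the 39399 genes listed for both mouse strains, 12 ligands and 20 receptors. With a mean of at least 1 TPM (the length-scaled share of a gene in a library's transcripts) in at least 1 of 12 groups as the bar for expression, 23 members were expressed, 6 ligands and 17 receptors. The other 9 were not.

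The mice were 10 weeks old, on a CBA background, and carried RiboTag, an allele that puts an HA tag on a ribosomal protein wherever Cre is active. Cre came from Prestin (PrestinCreERT2, labelled PrestinCre/+;RiboTagHA/+), a gene of outer hair cells, or from Sox2 (Sox2CreERT2, labelled Sox2Cre/+;RiboTagHA/+), which supporting cells and other non-sensory cells express. Noise of 105 dB SPL lasted 2 h, cochleae were taken 6 h or 24 h later, and controls of both strains had no noise. Each homogenate was split: an aliquot served as input, which stands for the whole cochlea, and the rest went to immunoprecipitation (IP) with an antibody against HA. Every group, controls included, carries Cre and RiboTag. The Prestin groups hold 3 libraries each for IP and input. The Sox2 groups hold 2 libraries each in controls and at 6 h and 3 each at 24 h, 32 libraries in all. In bulk RNA of this kind, fewer cells of a type and less RNA per cell cannot be told apart. The labels call the IPs enriched for their cell type, so a level in an IP is not the level in the tagged cells alone.

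Ligands of the superfamily are mostly trimers on the cell surface that can be shed by proteases, and Tnf is the classic inflammatory one. Receptors recruit TRAF adaptors to switch on NF-kB and MAP kinase signalling, and those with a death domain can also start caspases. Several receptors lack a signalling tail or a membrane anchor and act as decoys. In the cochlea, TNF signalling is best known from inflammation after noise or drugs, while the pair of RANK ligand and osteoprotegerin (Tnfrsf11b) governs bone turnover in the capsule around it.

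The labelled cell types were checked first. The 10 outer hair cell markers summed to 824 to 2225 TPM in outer hair cell control IPs and 81.3 to 97.7 TPM in their inputs, and the 10 supporting cell markers to 2338 to 3992 TPM in supporting cell control IPs and 638 to 715 TPM in theirs. In supporting cell IPs the 10 Schwann cell markers summed to 2893 to 6477 TPM in controls, 6063 to 7765 TPM at 6 h and 4391 to 8510.1 TPM at 24 h, beside supporting cell markers of 3216 to 3348 TPM at 6 h and 3844 to 5612 TPM at 24 h. At 6 h the Schwann cell sums lay above the supporting cell sums in both libraries. In outer hair cell IPs the Schwann cell markers summed to 1310 to 2361 TPM in controls. They summed to 1915 to 2085 TPM at 6 h and 1556 to 1953 TPM at 24 h there. Supporting cell markers in these IPs summed to 1166 to 1696 TPM in controls, 1778 to 1919 TPM at 6 h and 1408 to 1587 TPM at 24 h. Outer hair cell markers, at 515 to 835 TPM at 6 h and 786 to 899.7 TPM at 24 h, lay below both. The part of these other cells in the responses of either IP was not tested. Replicate 1 of the outer hair cell control IPs stood apart. Its log2 values correlated with the 8 other outer hair cell IPs at 0.75 to 0.82 (Pearson, across genes), against 0.85 to 0.94 among those 8. The 4 Sox2 libraries taken at 6 h had 15929 to 16966 genes above 0, against 17395 to 21239 in the 10 other Sox2 libraries. No other libraries stand for supporting cell IPs at 6 h, so those responses cannot be given without them.

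Tnfrsf12a, the receptor of Tnfsf12 (TWEAK), was the most abundant member in all 4 kinds of control, with 161 ± 52.2 TPM in outer hair cell IPs and 136 ± 16.1 TPM in their inputs (SD, n = 3 each), and with 103 ± 23.1 TPM in supporting cell IPs and 119.9 ± 10.6 TPM in their inputs (SD, n = 2 each). Its lowest library lay above the highest of the next member by mean, Tnfrsf11b, in each of the 4. In outer hair cell control replicate 1, however, Tnfrsf25 stood above Tnfrsf12a, at 118 TPM against 106 TPM. Tnfrsf11b followed at 75.1 TPM in outer hair cell IPs and 65.2 TPM in their inputs. In the outer hair cell IPs Tnfrsf11b, Tnfrsf25, Tnfrsf1a and Tnfsf13 came next in that order and each overlapped its neighbour, while Tnfsf13, at 42.5 TPM, lay above Tnfsf12, at 15.5 TPM, in every library. The order in supporting cell IPs was Tnfrsf11b, Tnfrsf1a (40.7 TPM), Tnfsf13 (39.4 TPM), Tnfrsf25 (26.8 TPM) and Tnfrsf21 (14.1 TPM), with no overlap between neighbours in the 2 libraries.

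Noise changed 7 receptors and 3 ligands of the 23 expressed members in at least 1 comparison with controls. Responses were tested with limma on log2(TPM + 1), with p adjusted over all genes tested and a threshold of 0.05, and are given as log2 fold change ± SE. In outer hair cell IPs at 6 h, 1 of 21 members tested rose (Tnfrsf12a), where 0.856% of all genes did, and 1 fell (Tnfrsf4), where 4.77% did. At 24 h, 4 of the 21 rose there (Tnfrsf12a, Tnfrsf11b, Tnfrsf23, Tnfrsf26), against 1.1% of all genes, and Tnfrsf4 fell, against 5.14%. Without control replicate 1, 1 of 20 rose at 6 h (Tnfrsf12a) and 2 of 20 at 24 h (Tnfrsf12a, Tnfrsf11b), and limma called none lower at either time. In supporting cell IPs 2 of 20 rose at 6 h (Tnfrsf12a, Tnfrsf1a), against 0.216% of all genes. At 24 h limma called 0 of 20 in supporting cell IPs, where 0.188% of all genes passed, and 8 had an unadjusted p under 0.05, against 11.5% of all genes.

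In the whole cochlea 3 of 16 members tested rose at 6 h (Tnfrsf12a, Tnfrsf1a, Tnfrsf11b), against 3.83% of all genes, and 2 fell (Tnfsf12, Tnfsf13), against 4.71%. At 24 h 6 of 16 were above controls (Tnfrsf12a, Tnfrsf1a, Tnfrsf11b, Tnfrsf22, Tnfrsf23, Tnfsf10), against 3.78% of all genes. At 24 h over 6 h 6 of 16 were higher (Tnfsf10, Tnfsf12, Tnfsf13, Tnfrsf19, Tnfrsf22, Tnfrsf23), against 12.6% of all genes, and Tnfrsf12a was lower, against 3.48%. With both 6 h Sox2 inputs left out, a fit added after the data were seen, 4 of those 7 passed, and Tnfrsf19, Tnfrsf22 and Tnfrsf23 did not, while all calls over controls in the whole cochlea were kept. Fitted in each strain alone, the 6 members above controls at 24 h had log2 fold changes of 0.71 to 0.96 in Prestin inputs, where 5 passed (Tnfrsf22 did not, adjusted p = 0.0736), and of 0.52 to 1.36 in Sox2 inputs, where limma called 0 of all genes. Of the 5 calls at 6 h, Prestin inputs alone kept all but Tnfrsf11b and Sox2 inputs alone kept Tnfrsf12a. Of the 7 at 24 h over 6 h, Prestin inputs alone kept Tnfrsf12a, Tnfsf10, Tnfsf12 and Tnfsf13, and Sox2 inputs alone kept Tnfrsf12a. Each pair of times shares its controls. The median log2 fold change of the members was 0.28 at 6 h and 0.81 at 24 h in outer hair cell IPs, beside -0.17 and -0.15 for all genes tested there. It was 0.55 and 0.67 in supporting cell IPs, beside -0.07 and 0.14, and -0.02 and 0.39 in the whole cochlea, beside -0.09 and 0.02.

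**Figure D1:**
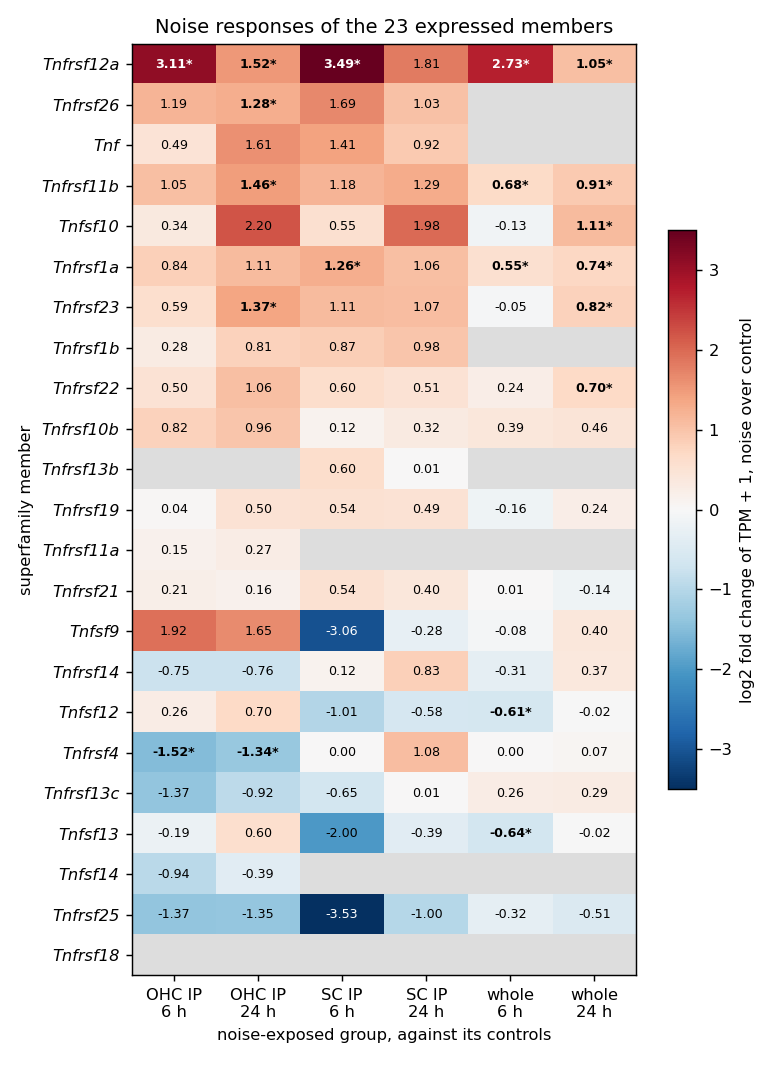
Log2 fold change of TPM + 1, noise over control, for the 23 expressed members (rows, ordered by their mean over the columns) in outer hair cell (OHC) IPs, supporting cell (SC) IPs and the whole cochlea at 6 h and 24 h (columns). Bold values with a star passed an adjusted p of 0.05, and grey cells were not tested because too few libraries reached 1 TPM; Tnfrsf12a heads the map, and Tnfsf9 is the member whose sign is most opposed between the IPs, at 1.92 and -3.06 at 6 h.

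Median-of-ratios scaling moved the median of all genes by 0.20 and 0.18 (log2) in the outer hair cell IPs at 6 h and 24 h and by -0.11 in supporting cell IPs at 24 h. The split of all genes called higher and lower went with it. It was 137 to 170 in place of 143 to 797 in outer hair cell IPs at 6 h, 233 to 340 in place of 183 to 858 at 24 h, and 796 to 429 in place of 544 to 669 in the whole cochlea at 6 h. No member's noise response that passed the test on the deposited scale changed direction under this scaling, and those that lost their call are named with their values below.

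Sequence is shown for the 4 of the 6 members raised in the whole cochlea at 24 h that have an entry in the RefSeq promoter table (GRCm38.p6), so that the promoters of members that rose together can be compared. The table matched 25 of 32 members. The stretches lie in the 250 bases before the RefSeq start and leave out bases that GENCODE M21 places in an exon of the gene, and they read 5′ to 3′ on the gene's strand. They are chr17:23677469-23677699, minus strand for Tnfrsf12a, chr6:125349509-125349722, plus strand for Tnfrsf1a, chr3:27316827-27317027, plus strand for Tnfsf10 and chr7:143685876-143686125, minus strand for Tnfrsf23. GENCODE M21 starts the Tnfrsf1a gene at chr6:125349362, upstream of its stretch, so by that annotation this stretch lies within the gene. Capitals mark the 1 motif found, the letters of a TATA box (TATAAA) in Tnfrsf23. They stand on the opposite strand, at -158 from the RefSeq start, and whether they act as a TATA box was not tested.
Tnfrsf12a: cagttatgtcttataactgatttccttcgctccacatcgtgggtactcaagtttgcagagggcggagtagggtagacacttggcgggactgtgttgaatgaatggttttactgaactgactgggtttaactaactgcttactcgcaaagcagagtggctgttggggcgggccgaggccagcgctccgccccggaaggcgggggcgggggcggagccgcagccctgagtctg
Tnfrsf1a: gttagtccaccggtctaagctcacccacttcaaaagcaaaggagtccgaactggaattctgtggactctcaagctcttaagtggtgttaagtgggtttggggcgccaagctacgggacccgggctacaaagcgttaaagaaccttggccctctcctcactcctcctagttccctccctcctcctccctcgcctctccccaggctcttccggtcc
Tnfsf10: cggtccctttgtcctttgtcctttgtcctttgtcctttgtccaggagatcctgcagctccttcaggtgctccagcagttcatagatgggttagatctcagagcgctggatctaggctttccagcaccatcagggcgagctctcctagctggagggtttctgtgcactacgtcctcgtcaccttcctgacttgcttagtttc
Tnfrsf23: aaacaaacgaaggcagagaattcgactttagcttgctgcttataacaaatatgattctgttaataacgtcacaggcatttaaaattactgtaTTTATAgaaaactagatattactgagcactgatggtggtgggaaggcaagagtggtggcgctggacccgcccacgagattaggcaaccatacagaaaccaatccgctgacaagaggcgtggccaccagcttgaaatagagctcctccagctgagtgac
Both strands were searched for AP-1 (TGANTCA), the cyclic AMP response element (TGACGTCA), TATAAA, the NF-kB site and the serum response element, of which the last can overlap TATAAA. Over 250 bases before the start, these letters occur in 6.75%, 1.55%, 12.4%, 5.001% and 1.47% of 32851 RefSeq promoters, in that order. None of the other 4 motifs stands in the stretches above. The Tnfrsf12a stretch was 57.6% G or C, and the Tnfrsf23 stretch 44.8%.

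Among members called above controls, Tnfrsf12a had the largest log2 fold change in each comparison but the whole cochlea at 24 h, where that of Tnfsf10 was larger. The gene lies at chr17:23675445-23677468 (GRCm38, minus strand) and encodes a small receptor that many tissues switch on after injury. It measured 106, 209 and 169 TPM in the controls, 1484, 1303 and 1260.2 TPM at 6 h and 581, 345 and 439 TPM at 24 h in outer hair cell IPs. Supporting cell IPs held 119.7 and 87 TPM in the controls, 1048 and 1269.6 TPM at 6 h and 295, 467 and 341 TPM at 24 h. All libraries at 6 h lay above all controls, and the 24 h libraries stood between them in both cell types.

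At 6 h the rise over controls was 8.38-fold in outer hair cell IPs (log2 fold change 3.11 ± 0.28, adjusted p = 0.00503) and 11.2-fold in supporting cell IPs (log2 fold change 3.49 ± 0.28, adjusted p = 0.0163), as ratios of mean TPM. The supporting cell call was lost without control replicate 4 or 6 h replicate 4, with adjusted p up to 0.0793. At 24 h it was 2.83-fold in outer hair cell IPs (log2 fold change 1.52 ± 0.28, adjusted p = 0.0284) and 3.56-fold in supporting cell IPs, which did not pass (log2 fold change 1.81 ± 0.25, adjusted p = 0.0839). The outer hair cell call at 24 h was lost without control replicate 3 or without any 1 of the 3 libraries at 24 h, with adjusted p up to 0.104. In the whole cochlea the Prestin inputs held 154, 123 and 129.9 TPM in the controls, 1036, 824 and 737 TPM at 6 h and 293, 210.1 and 231 TPM at 24 h. The Sox2 inputs held 127 and 112 TPM in the controls, 855 and 857 TPM at 6 h and 249, 281 and 376 TPM at 24 h. Again 6 h was highest, 24 h in between and no groups overlapped. Over controls the whole cochlea gained at 6 h (log2 fold change 2.73 ± 0.14, adjusted p = 1.06e-07) and at 24 h (log2 fold change 1.05 ± 0.13, adjusted p = 0.000267), and 24 h lay below 6 h (log2 fold change -1.68 ± 0.13, adjusted p = 3.87e-06). The difference between the response of an IP and that of its inputs did not pass for Tnfrsf12a at either time. At 6 h it was 0.45 for outer hair cells (adjusted p = 0.481) and 0.66 for supporting cells (adjusted p = 0.542).

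**Figure D2:**
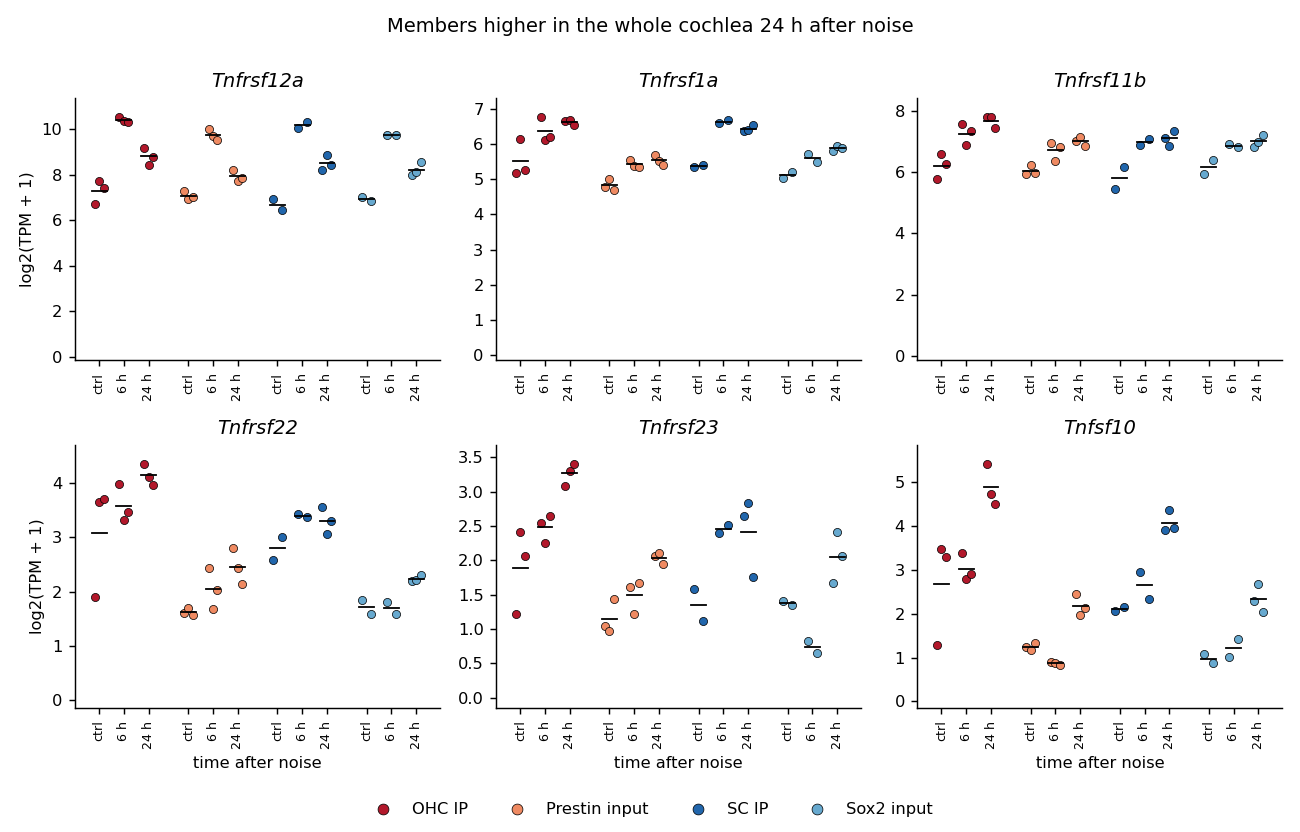
Log2(TPM + 1) of the 6 members that rose in the whole cochlea at 24 h, in controls (ctrl) and 6 h and 24 h after noise, for OHC IPs, Prestin inputs, SC IPs and Sox2 inputs. Each point is a library and each bar a group mean; Tnfrsf12a peaks at 6 h in all 4 kinds of library, while Tnfsf10 is highest at 24 h in all 4.

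The ligand of Tnfrsf12a, Tnfsf12, fell in the whole cochlea at 6 h. The Prestin inputs measured 5.3, 4.52 and 4.71 TPM in the controls, 2.59, 2.93 and 2.35 TPM at 6 h and 3.52, 5.54 and 5.02 TPM at 24 h. The Sox2 inputs measured 4.62 and 4.08 TPM in the controls, 1.83 and 4.15 TPM at 6 h and 3.68, 5.03 and 4.8 TPM at 24 h. Over both strains 6 h lay below controls (log2 fold change -0.61 ± 0.15, adjusted p = 0.0214) and 24 h lay above 6 h (log2 fold change 0.59 ± 0.14, adjusted p = 0.0129). The 6 h libraries lay below the controls in the Prestin inputs and overlapped them in the Sox2 inputs, where 1 of 2 was within the control range. Without Prestin control replicate 1 or Sox2 control replicate 1 the fall no longer passed, with adjusted p up to 0.0541, and it was -0.69 (adjusted p = 0.0395) in Prestin inputs alone and -0.48 (adjusted p = 0.444) in Sox2 inputs alone. Tnfsf12 measured 3.22, 21.8 and 21.5 TPM in the controls, 14.7, 15 and 13.8 TPM at 6 h and 22.2, 19.9 and 18.2 TPM at 24 h in outer hair cell IPs, where its groups overlapped. It measured 10.6 and 16.8 TPM in the controls, 6.03 and 6.18 TPM at 6 h and 9.19, 9.32 and 7.35 TPM at 24 h in supporting cell IPs, with all noise libraries below the controls. Neither IP passed the test at either time. The smallest adjusted p of the 4 was that of supporting cell IPs at 6 h (log2 fold change -1.01 ± 0.29, adjusted p = 0.158). The receptor exceeded its ligand in every library, since Tnfsf12 ranged over 1.83 to 22.2 TPM and Tnfrsf12a over 87 to 1484 TPM.

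Tnfsf13 (APRIL), a ligand of B cell receptors whose gene lies next to Tnfsf12, fell with it in the whole cochlea at 6 h (log2 fold change -0.64 ± 0.16, adjusted p = 0.0268). It measured 71.6, 68.6 and 53 TPM in the controls, 39, 37.5 and 30.2 TPM at 6 h and 70.8, 69.9 and 63.7 TPM at 24 h in the Prestin inputs. The Sox2 inputs held 50.6 and 55.2 TPM in the controls, 38.6 and 45 TPM at 6 h and 56.9, 35.2 and 58.8 TPM at 24 h, and 6 h lay below the controls in both strains. At 24 h it was above 6 h (log2 fold change 0.62 ± 0.16, adjusted p = 0.016), but not under median-of-ratios scaling (adjusted p = 0.0552). The fall lost its call without Prestin control replicate 1 or 2, Prestin 6 h replicate 1 or 3, or Sox2 control replicate 4, with adjusted p up to 0.0667, and under median-of-ratios scaling, with adjusted p = 0.0656. In GENCODE M21 Tnfsf12 lies at chr11:69686250-69695849 and Tnfsf13 at chr11:69682846-69685784. Tnfsf12 shares 731 and Tnfsf13 983 exonic bases with a readthrough transcript, Tnfsfm13, on their own strand. How such reads were assigned is not given in the sources used here, so the split between these 2 genes is uncertain.

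Among the receptors of Tnf itself, Tnfrsf1a, which carries a death domain and is widely expressed, rose in the whole cochlea at both times. Prestin inputs held 26.7, 30.9 and 24.8 TPM in the controls, 46, 40.5 and 40.0 TPM at 6 h and 50.8, 45.1 and 41.2 TPM at 24 h. Sox2 inputs held 32 and 36 TPM in the controls, 52.1 and 44 TPM at 6 h and 55.1, 61 and 57.9 TPM at 24 h. Every noise library lay above every control library. It passed at 6 h (log2 fold change 0.55 ± 0.08, adjusted p = 0.000748) and at 24 h (log2 fold change 0.74 ± 0.08, adjusted p = 5.95e-05), and lost neither call with any 1 of 16 libraries left out. The supporting cell IPs measured 39.8 and 41.7 TPM in the controls, 96.1 and 102 TPM at 6 h and 82, 83.4 and 92.5 TPM at 24 h, and no noise library overlapped a control. That difference passed at 6 h (log2 fold change 1.26 ± 0.14, adjusted p = 0.0326) and not at 24 h (log2 fold change 1.06 ± 0.13, adjusted p = 0.0704), and the 6 h call was lost whichever of 7 libraries was left out, with adjusted p up to 0.112. Outer hair cell IPs measured 35.1, 70.2 and 37.4 TPM in the controls, 109, 69.1 and 72.9 TPM at 6 h and 101, 103 and 92.7 TPM at 24 h. Here 1 library at 6 h lay within the control range and the 24 h libraries lay above it, and neither time passed (adjusted p = 0.113 at 6 h and 0.0586 at 24 h).

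Tnfrsf1b, the Tnf receptor without a death domain that is best known from immune and endothelial cells, was a low gene. It stood at 0.994, 3.91 and 4.4 TPM in the controls, 4.32, 3.47 and 2.97 TPM at 6 h and 5.41, 5.88 and 5.47 TPM at 24 h in outer hair cell IPs. Supporting cell IPs held 2.21 and 1.81 TPM in the controls, 3.24 and 6.05 TPM at 6 h and 5.8, 4.04 and 5.1 TPM at 24 h, with all noise libraries above the controls. Neither passed a noise test (adjusted p of 0.204 to 0.654). In inputs it ranged over 0.0115 to 1.56 TPM, too low to be tested for noise there.

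Tnf itself, the classic inflammatory ligand, was listed at 0 in 16 of 32 libraries. The outer hair cell IPs held 0, 0.547 and 0 TPM in the controls, 0.386, 0.201 and 1.55 TPM at 6 h and 4.83, 6.48 and 0 TPM at 24 h. The supporting cell IPs held 0 and 0 TPM in the controls, 0 and 6.06 TPM at 6 h and 5.75, 0 and 0 TPM at 24 h. The inputs ranged over 0 to 1.18 TPM, with Prestin inputs at 0.0993, 0 and 0.633 TPM in the controls, 0, 1.18 and 0 TPM at 6 h and 0.768, 1.14 and 0.0765 TPM at 24 h and Sox2 inputs at 0 and 0 TPM in the controls, 0 and 0 TPM at 6 h and 0, 0.526 and 1.02 TPM at 24 h. Values above 4 TPM came from 4 libraries, all noise-exposed IPs, and each of those groups also held a library at 0. It did not pass in either IP at either time (adjusted p of 0.206 to 0.782).

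Of the other death receptors, none passed over both strains. Tnfrsf10b, the receptor through which Tnfsf10 (TRAIL) can kill, measured 4.23, 17 and 14.2 TPM in the controls, 20.3, 18.1 and 18.3 TPM at 6 h and 25.9, 23.6 and 15 TPM at 24 h in outer hair cell IPs. Prestin inputs held 1.11, 2.13 and 1.64 TPM in the controls, 2.65, 2.47 and 2.66 TPM at 6 h and 3.21, 3.6 and 3.71 TPM at 24 h. In the supporting cell IPs it was 6.09 and 4.3 TPM in the controls, 4.83 and 6.61 TPM at 6 h and 5.43, 7.08 and 7.66 TPM at 24 h, and in Sox2 inputs 1.66 and 2.05 TPM in the controls, 1.29 and 4.21 TPM at 6 h and 2.79, 1.06 and 2.3 TPM at 24 h. The noise libraries lay above the controls in the Prestin inputs alone of the 4 kinds of library. In Prestin inputs alone it passed at 24 h (log2 fold change 0.80 ± 0.15, adjusted p = 0.0227), while over both strains it did not (log2 fold change 0.46 ± 0.22, adjusted p = 0.341), nor did it pass in an IP. Tnfrsf25, a death domain receptor of Tnfsf15, measured, in outer hair cell IPs, 118, 54.9 and 47.2 TPM in the controls, 20.7, 22.1 and 35.8 TPM at 6 h and 20.9, 27.5 and 29.9 TPM at 24 h. The noise and control libraries did not overlap, yet the difference missed the threshold at 6 h (log2 fold change -1.37 ± 0.36, adjusted p = 0.0654) and at 24 h (log2 fold change -1.35 ± 0.36, adjusted p = 0.0665). Its supporting cell IPs held 33.1 and 20.4 TPM in the controls, 4.49 and 0 TPM at 6 h and 19.7, 5.61 and 16.9 TPM at 24 h, with both 6 h libraries below the controls (log2 fold change -3.53 ± 0.92, adjusted p = 0.137). Prestin inputs of Tnfrsf25 measured 5.36, 7.61 and 5.56 TPM in the controls, 5.7, 4.88 and 6.39 TPM at 6 h and 2.29, 3.85 and 2.16 TPM at 24 h, with 24 h below all controls. In these inputs alone it fell at 24 h, below controls (log2 fold change -0.94 ± 0.19, adjusted p = 0.0335) and below 6 h (log2 fold change -0.84 ± 0.19, adjusted p = 0.0338). The summed level of the 10 neuron markers was also lower in these libraries, though limma called none of them at 24 h in these IPs or over the inputs of both strains. It was 689.8 to 749 TPM in Prestin inputs at 24 h, against 1185 to 1789 TPM in their controls, and 874 to 1266 TPM in outer hair cell IPs at 24 h, against 1437 to 2325 TPM in controls, with none of the 10 at 0 throughout a group. In supporting cell control IPs the neuron sum was 1399 to 1438 TPM. It was 1294 to 2204 TPM at 6 h and 1444 to 1868 TPM at 24 h there. In Sox2 inputs the sum was 1018 to 1182 TPM at 24 h, against 721 to 1322 TPM in controls. The part of these markers in the fall of Tnfrsf25 was not tested. The Sox2 inputs were spread over 7.35 and 1.39 TPM in the controls, 0 and 7.27 TPM at 6 h and 4.92, 2.69 and 2.84 TPM at 24 h, and over both strains it did not pass at 24 h (log2 fold change -0.51 ± 0.47, adjusted p = 0.709). Tnfrsf21, a death domain receptor of neurons and other cells, spanned 10.4 to 23.6 TPM over all 32 libraries and passed in no comparison. Of the settings tried, median-of-ratios scaling alone called it below input, with -1.06 in outer hair cell IPs and -0.98 in supporting cell IPs (log2 fold change, adjusted p = 8.2e-07 and 2.73e-05).

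The decoy receptors Tnfrsf11b, Tnfrsf22 and Tnfrsf23 rose in the whole cochlea at 24 h, and Tnfrsf11b at 6 h too. Tnfrsf11b (osteoprotegerin), a secreted decoy that binds RANK ligand, measured 53.9, 96 and 75.5 TPM in the controls, 188, 116 and 161 TPM at 6 h and 223, 220.0 and 171 TPM at 24 h in outer hair cell IPs. Prestin inputs had 59.7, 74.1 and 61.7 TPM in the controls, 123, 81.1 and 111 TPM at 6 h and 129.8, 139 and 115 TPM at 24 h. Both at 6 h and at 24 h, every library lay above the controls of its kind, which also held for supporting cells. Their IPs measured 42.9 and 71 TPM in the controls, 118 and 134 TPM at 6 h and 138, 114 and 162 TPM at 24 h, and the Sox2 inputs 60.7 and 82.5 TPM in the controls, 119 and 112 TPM at 6 h and 113, 126 and 146 TPM at 24 h. The whole cochlea passed at 6 h (log2 fold change 0.68 ± 0.12, adjusted p = 0.00323), though in neither strain alone (Prestin inputs at 0.67, adjusted p = 0.0598, and Sox2 inputs at 0.70, adjusted p = 0.137), and at 24 h (log2 fold change 0.91 ± 0.12, adjusted p = 0.000278), while the difference between those 2 times did not (log2 fold change 0.23 ± 0.12, adjusted p = 0.212). The outer hair cell IPs passed at 24 h (log2 fold change 1.46 ± 0.26, adjusted p = 0.0262) and not at 6 h (adjusted p = 0.0564). That call was lost without control replicate 3 or any 1 library at 24 h, with adjusted p up to 0.0991. Supporting cell IPs passed at neither time (adjusted p = 0.122 at 6 h and 0.186 at 24 h).

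Tnfrsf22 (chr7:143634806-143649661), Tnfrsf23 (chr7:143665809-143685872) and Tnfrsf26 (chr7:143607659-143628722) are neighbours on mouse chromosome 7. In mouse Tnfrsf22 and Tnfrsf23 are decoy receptors of Tnfsf10. Reads shared between such close copies could be split among them, and an antisense gene overlaps exons of Tnfrsf23 and Tnfrsf26 by 164 and 107 bases, so their separate values are uncertain. Tnfrsf23 measured 1.32, 4.33 and 3.16 TPM in the controls, 4.82, 3.74 and 5.28 TPM at 6 h and 7.5, 8.87 and 9.57 TPM at 24 h in outer hair cell IPs. Prestin inputs showed 1.05, 0.966 and 1.71 TPM in the controls, 2.05, 1.31 and 2.19 TPM at 6 h and 3.19, 3.29 and 2.85 TPM at 24 h. Tnfrsf23 measured 1.98 and 1.17 TPM in the controls, 4.28 and 4.68 TPM at 6 h and 5.26, 6.15 and 2.38 TPM at 24 h in supporting cell IPs and 1.66 and 1.55 TPM in the controls, 0.775 and 0.576 TPM at 6 h and 2.19, 4.34 and 3.19 TPM at 24 h in Sox2 inputs. At 24 h it was above control in every library of every kind. It rose in the whole cochlea at 24 h (log2 fold change 0.82 ± 0.19, adjusted p = 0.0218) and in outer hair cell IPs at 24 h (log2 fold change 1.37 ± 0.31, adjusted p = 0.0435). The first was lost without Prestin control replicate 1 or 2 or Sox2 24 h replicate 3 (adjusted p up to 0.0654), and the second was kept without 1 of the 9 libraries and lost without each of the other 8 (adjusted p up to 0.134), and lost with a pseudocount of 0.1 (adjusted p = 0.0535) or with no filter on low genes (adjusted p = 0.0678). At 24 h over 6 h the whole cochlea passed (log2 fold change 0.87 ± 0.19, adjusted p = 0.00673), but not without both 6 h Sox2 inputs (0.49, adjusted p = 0.106), in Prestin inputs alone (0.54, adjusted p = 0.0903) or in Sox2 inputs alone (1.31, adjusted p = 0.0552).

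Tnfrsf22 rose in the whole cochlea at 24 h (log2 fold change 0.70 ± 0.15, adjusted p = 0.0117), with 2.04, 2.25 and 1.98 TPM in the controls, 4.43, 2.19 and 3.07 TPM at 6 h and 5.99, 4.4 and 3.42 TPM at 24 h in Prestin inputs. Sox2 inputs showed 2.6 and 2.01 TPM in the controls, 2.51 and 1.98 TPM at 6 h and 3.56, 3.62 and 3.96 TPM at 24 h, again with the 24 h libraries above all controls. Its outer hair cell IPs held 2.74, 11.6 and 12.1 TPM in the controls, 14.8, 8.94 and 10.1 TPM at 6 h and 19.5, 16.4 and 14.7 TPM at 24 h, and its supporting cell IPs 4.99 and 7.05 TPM in the controls, 9.76 and 9.35 TPM at 6 h and 10.8, 7.37 and 8.87 TPM at 24 h, and neither passed at either time. Over 6 h, the whole cochlea at 24 h passed narrowly (log2 fold change 0.46 ± 0.15, adjusted p = 0.0477), a call kept in 3 of 16 fits with 1 library left out and lost without the filter (adjusted p = 0.0838) or under median-of-ratios scaling (adjusted p = 0.0948). It was also lost without both 6 h Sox2 inputs (0.34, adjusted p = 0.274), in Prestin inputs alone (0.41, adjusted p = 0.277) and in Sox2 inputs alone (0.54, adjusted p = 0.122).

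Tnfrsf26, the third of the cluster, measured 1.61, 1.06 and 1.19 TPM in the controls, 3.2, 5 and 4.54 TPM at 6 h and 5.19, 6.36 and 2.73 TPM at 24 h in outer hair cell IPs. It measured 0.149 and 0.0155 TPM in the controls, 2.36 and 2.59 TPM at 6 h and 1.57, 0.768 and 1.39 TPM at 24 h in supporting cell IPs, and 0 to 1.63 TPM in inputs. All noise IPs lay above the control IPs of their kind. Its rise passed in outer hair cells at 24 h (log2 fold change 1.28 ± 0.29, adjusted p = 0.0439), a call lost whichever of 9 libraries was left out (adjusted p up to 0.149) and with no filter on low genes (adjusted p = 0.0684), and missed at 6 h (adjusted p = 0.055).

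The ligand shared by Tnfrsf10b, Tnfrsf22 and Tnfrsf23, Tnfsf10 (TRAIL), was the 1 ligand called above controls. Prestin inputs measured 1.36, 1.26 and 1.53 TPM in the controls, 0.877, 0.834 and 0.767 TPM at 6 h and 4.5, 2.9 and 3.35 TPM at 24 h. The Sox2 inputs had 1.12 and 0.833 TPM in the controls, 1.03 and 1.7 TPM at 6 h and 3.88, 5.41 and 3.12 TPM at 24 h. Every library at 24 h lay above every control, while the 6 h libraries lay below the controls in Prestin inputs and overlapped them in Sox2 inputs. At 24 h it was above controls (log2 fold change 1.11 ± 0.15, adjusted p = 0.000409) and above 6 h (log2 fold change 1.24 ± 0.15, adjusted p = 8.8e-05). Outer hair cell IPs measured 1.46, 10.1 and 8.85 TPM in the controls, 9.55, 5.91 and 6.51 TPM at 6 h and 41.7, 25.8 and 21.7 TPM at 24 h. Supporting cell IPs measured 3.15 and 3.42 TPM in the controls, 6.72 and 4.09 TPM at 6 h and 14.1, 19.5 and 14.7 TPM at 24 h. All IPs at 24 h again lay above their controls, yet the difference missed the threshold in outer hair cells (log2 fold change 2.20 ± 0.56, adjusted p = 0.0574) and supporting cells (log2 fold change 1.98 ± 0.28, adjusted p = 0.0846). Without outer hair cell control replicate 1, which held the lowest value, the outer hair cell log2 fold change was 1.5 ± 0.3 (adjusted p = 0.0535).

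Markers of macrophages were also higher at 24 h. The 12 macrophage genes summed to 397 to 425 TPM in Prestin inputs at 24 h and 341 to 503 TPM in Sox2 inputs at 24 h, against 158 to 183 TPM and 204 to 220.0 TPM in their controls. In outer hair cell IPs they summed to 231 to 352 TPM at 24 h, against 93.9 to 142 TPM in controls, and in supporting cell IPs to 222 to 242 TPM, against 109 to 143 TPM. At 6 h they summed to 243 to 257 TPM in supporting cell IPs, above the controls and all 24 h libraries there. The 6 h sums were 141 to 191 TPM in Prestin inputs and 130 to 161 TPM in Sox2 inputs. In outer hair cell IPs at 6 h they were 91.4 to 161 TPM. Of 9 macrophage genes tested in the whole cochlea, 4 rose at 24 h, against 3.78% of all genes. None rose at 6 h, against 3.83% of all genes, and 1 fell, against 4.71%. No macrophage marker was at 0 throughout a group. The 12 lymphocyte genes summed to 1.47 to 27.9 TPM over the groups, and Cd3d and Cd3g of T cells were at 0 in every supporting cell IP and every outer hair cell control IP. The part of these cells in the members' rises was not tested.

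Tnfsf9, the ligand that costimulates T cells through Tnfrsf9, was the 1 member whose noise response differed between the IPs. In outer hair cell IPs it measured 0, 1.18 and 1.43 TPM in the controls, 3.54, 11.7 and 3.98 TPM at 6 h and 4.02, 3.59 and 6.06 TPM at 24 h. In supporting cell IPs it measured 4.87 and 10.9 TPM in the controls, 0 and 0 TPM at 6 h and 4.95, 4.83 and 8.43 TPM at 24 h. Every noise library of outer hair cells lay above its controls, and both supporting cell libraries at 6 h were listed at 0, below their controls. Alone, neither passed at 6 h (log2 fold change 1.92 ± 0.49, adjusted p = 0.0591 in outer hair cells, log2 fold change -3.06 ± 0.45, adjusted p = 0.0587 in supporting cells), though with a pseudocount of 0.1 the supporting cells did (adjusted p = 0.0159). The difference between the 2 responses, a test added after the data were seen, did (log2 fold change 4.98 ± 0.72, adjusted p = 0.0142; 1 of 23 members higher, against 0.337% of all genes), and it kept its call whichever of 16 libraries was left out. At 24 h it did not (adjusted p = 0.199).

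The inputs held less. Prestin inputs measured 1.72, 0 and 1.6 TPM in the controls, 4.1, 3.93 and 0.801 TPM at 6 h and 0.933, 3.97 and 1.49 TPM at 24 h. The Sox2 inputs had 1.26 and 3 TPM in the controls, 0 and 0.0792 TPM at 6 h and 1.26, 3.12 and 2.07 TPM at 24 h. At 6 h the Prestin inputs overlapped their controls and both Sox2 inputs lay below theirs. The difference between the input responses missed the threshold (log2 fold change 2.43 ± 0.80, adjusted p = 0.186). The 6 h Sox2 libraries are those with the fewest genes above 0. Of 10099 genes at 4 TPM or more in each of the 5 other supporting cell IPs, 30 were listed at 0 in both 6 h IPs, and Tnfsf9 was the only member among them, with that threshold chosen after its values were seen. What such zeros stand for was not tested. Tnfsf9 shares 192 exonic bases with an antisense gene, so strand use could also touch its values. Its receptor Tnfrsf9 was below 0.21 TPM in every library.

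**Figure D3:**
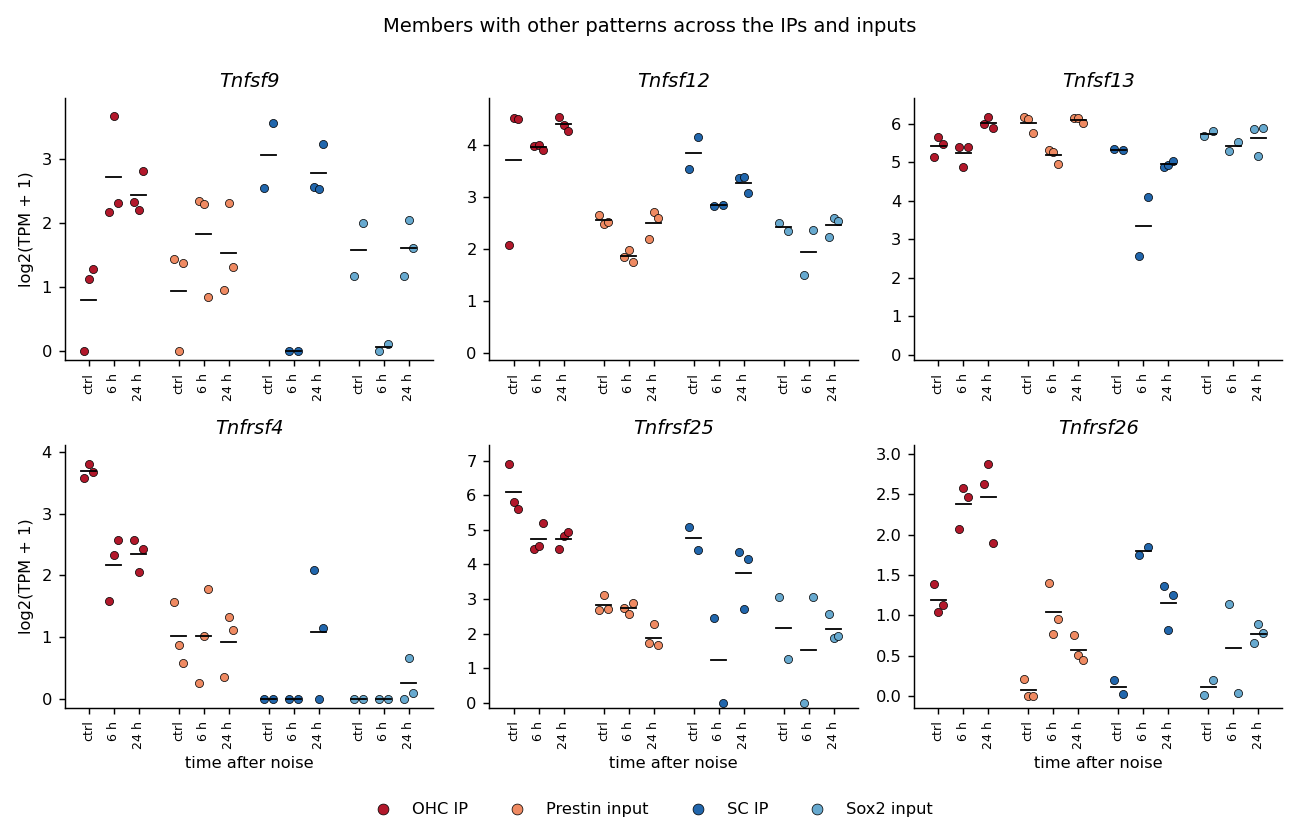
Log2(TPM + 1) of 6 members with other patterns, in controls (ctrl) and 6 h and 24 h after noise, for OHC IPs, Prestin inputs, SC IPs and Sox2 inputs. Each point is a library and each bar a group mean; Tnfsf9 is at 0 in both SC IPs at 6 h, and Tnfrsf4 is highest in the 3 OHC control IPs.

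Tnfsf13 was also placed differently in the IPs. It measured 34.2, 49.4 and 43.8 TPM in the controls, 41.4, 28.6 and 41.4 TPM at 6 h and 62.8, 71.9 and 58.1 TPM at 24 h in outer hair cell IPs, with 24 h above the controls. Supporting cell IPs measured 39.7 and 39 TPM in the controls, 4.91 and 16.2 TPM at 6 h and 28.7, 29.3 and 31.6 TPM at 24 h, with all noise libraries below the controls. Neither IP passed at either time. The difference between the responses did not pass at 6 h (log2 fold change 1.81 ± 0.49, adjusted p = 0.119) or at 24 h (log2 fold change 0.99 ± 0.46, adjusted p = 0.306).

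Tnfrsf4 (OX40), a costimulatory receptor of T cells, was highest in outer hair cell IPs before noise and fell after it. It measured 10.9, 13 and 11.8 TPM in the controls, 2.01, 4.01 and 4.96 TPM at 6 h and 4.94, 3.16 and 4.35 TPM at 24 h there. No noise library overlapped a control. The fall passed at 6 h (log2 fold change -1.52 ± 0.28, adjusted p = 0.0314) and at 24 h (log2 fold change -1.34 ± 0.28, adjusted p = 0.0348). The 6 h call was kept in 1 and the 24 h call in 3 of 9 fits that each left out 1 library, with adjusted p up to 0.074 and 0.125. Both were also lost under median-of-ratios scaling (adjusted p = 0.0533 and 0.0592) and with no filter on low genes (adjusted p = 0.051 and 0.0564). Prestin inputs held 1.98, 0.834 and 0.5 TPM in the controls, 0.189, 1.03 and 2.41 TPM at 6 h and 0.273, 1.5 and 1.16 TPM at 24 h. Supporting cell IPs held 0 and 0 TPM in the controls, 0 and 0 TPM at 6 h and 3.23, 0 and 1.21 TPM at 24 h, and 10 of 14 Sox2 libraries listed it at 0. In the same outer hair cell IPs the 10 outer hair cell markers summed to 515 to 835 TPM at 6 h and 786 to 899.7 TPM at 24 h, against 824 to 2225 TPM in controls. Malat1, a nuclear RNA, measured 15602 to 21421 TPM at 6 h and 12251 to 22823 TPM at 24 h, against 44030 to 73023 TPM in controls. The part of either in the falls of Tnfrsf4 and Tnfrsf25 was not tested. The ligand of Tnfrsf4, Tnfsf4, was listed at 0 in all 32 libraries.

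Compared with input, most members were higher in the IPs, as most genes were. In outer hair cells 15 of 22 members tested were above their inputs and none below, against 68.5% of all genes higher. In supporting cells 11 of 21 were above and 1 below, against 55.2% higher and 2.72% lower. The median over the members was 0.82 in outer hair cells and 0.68 in supporting cells, beside 0.82 and 0.65 for all genes. Median-of-ratios scaling moved the median of all genes by -0.77 and -0.63, and split the members 8 above to 5 below in outer hair cell IPs and 3 above to 5 below in supporting cell IPs. Under it Tnfrsf12a, Tnfrsf1a, Tnfrsf19 and Tnfrsf11b turned to below input in outer hair cell IPs, and Tnfrsf12a, Tnfrsf1a and Tnfrsf19 in supporting cell IPs.

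The largest differences in outer hair cell IPs over input were in Tnfrsf25 (2.71 ± 0.18, adjusted p = 3e-09), Tnfrsf10b (2.29 ± 0.20, adjusted p = 6.83e-08), Tnfsf10 (2.10 ± 0.25, adjusted p = 1.85e-06) and Tnfrsf4 (1.75 ± 0.22, adjusted p = 3.85e-06). Each of the 4 was above input in 9 of 9 homogenates. In control libraries alone Tnfsf10 did not pass (1.44, adjusted p = 0.0718), nor did Tnfrsf12a, Tnfrsf1a, Tnfrsf23, Tnfrsf11b and Tnfsf12. Tnfrsf25, for one, ranged over 20.7 to 118 TPM in these IPs and 2.16 to 7.61 TPM in their inputs, with no overlap. The lowest values were those of Tnfrsf18, a costimulatory receptor of T cells, and Tnfsf13, which did not pass (-0.35, adjusted p = 0.16, and -0.21, adjusted p = 0.0689). In control libraries alone Tnfsf13 was below input (-0.59, adjusted p = 0.0377). Tnfrsf18 held 1.66, 0 and 0 TPM in the controls, 0.371, 0 and 0.186 TPM at 6 h and 0, 0 and 0 TPM at 24 h in outer hair cell IPs and 0.478, 0 and 0.203 TPM in the controls, 0.48, 0.852 and 1.12 TPM at 6 h and 0.461, 1.52 and 0 TPM at 24 h in their inputs.

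The largest differences in supporting cell IPs over input were Tnfrsf1b (1.58 ± 0.19, adjusted p = 4.63e-05), Tnfsf10 (1.43 ± 0.16, adjusted p = 2.59e-05), Tnfrsf25, which did not pass (1.31 ± 0.59, adjusted p = 0.0815), and Tnfrsf22 (1.29 ± 0.12, adjusted p = 8.18e-06). In control libraries alone Tnfrsf22 did not pass (adjusted p = 0.0574), nor did Tnfrsf10b, Tnfrsf1a, Tnfrsf19, Tnfrsf23 and Tnfsf9. Tnfsf13 was below input (-1.07 ± 0.22, adjusted p = 0.00202), in 7 of 7 homogenates, though not in control libraries alone (-0.42, adjusted p = 0.102), and Tnfrsf13c, a receptor of B cells, did not pass (-0.63 ± 0.45, adjusted p = 0.261). Tnfrsf13c held 1.46 and 0 TPM in the controls, 0 and 0 TPM at 6 h and 1.06, 0 and 0.896 TPM at 24 h in supporting cell IPs and 0 and 1.39 TPM in the controls, 0 and 5.06 TPM at 6 h and 0.468, 1.75 and 2.49 TPM at 24 h in their inputs. Tnfrsf26 was above input (0.53 ± 0.19, adjusted p = 0.0383), but not with IP and input of a homogenate taken as a pair (adjusted p = 0.0812), under median-of-ratios scaling (adjusted p = 0.484) or with a pseudocount of 0.1 (adjusted p = 0.0985), and its call was kept in 2 of 14 fits with 1 library left out.

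Tnfrsf19 (TROY), a receptor of neural and epithelial progenitors, was above input in both IPs and in all 16 homogenates. Its log2 fold changes were 0.77 in outer hair cells and 0.77 in supporting cells, beside medians of 0.82 and 0.65 for all genes. Under median-of-ratios scaling they were -0.19 (adjusted p = 0.081) and -0.055 (adjusted p = 0.683). It did not pass in supporting cell control libraries alone (0.41, adjusted p = 0.262). It measured 10.4, 12.5 and 9.04 TPM in the controls, 12.9, 9.05 and 11 TPM at 6 h and 16, 16.1 and 14.1 TPM at 24 h in outer hair cell IPs. It measured 10.6 and 8.79 TPM in the controls, 14.1 and 15.1 TPM at 6 h and 14, 14.3 and 13.7 TPM at 24 h in supporting cell IPs. The Prestin inputs held 5.85, 7.26 and 6.13 TPM in the controls, 6.9, 4.98 and 5.88 TPM at 6 h and 8.26, 7.44 and 7.94 TPM at 24 h and the Sox2 inputs 6.06 and 8.2 TPM in the controls, 5.61 and 5.92 TPM at 6 h and 8.35, 8.34 and 8.04 TPM at 24 h, with 6 h below 24 h in the means of both. Its single noise call was the whole cochlea at 24 h over 6 h (log2 fold change 0.40 ± 0.09, adjusted p = 0.00674). It did not pass without both 6 h Sox2 inputs (0.35, adjusted p = 0.0654), in Prestin inputs alone (0.37, adjusted p = 0.0966) or in Sox2 inputs alone (0.45, adjusted p = 0.145).

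**Figure D4:**
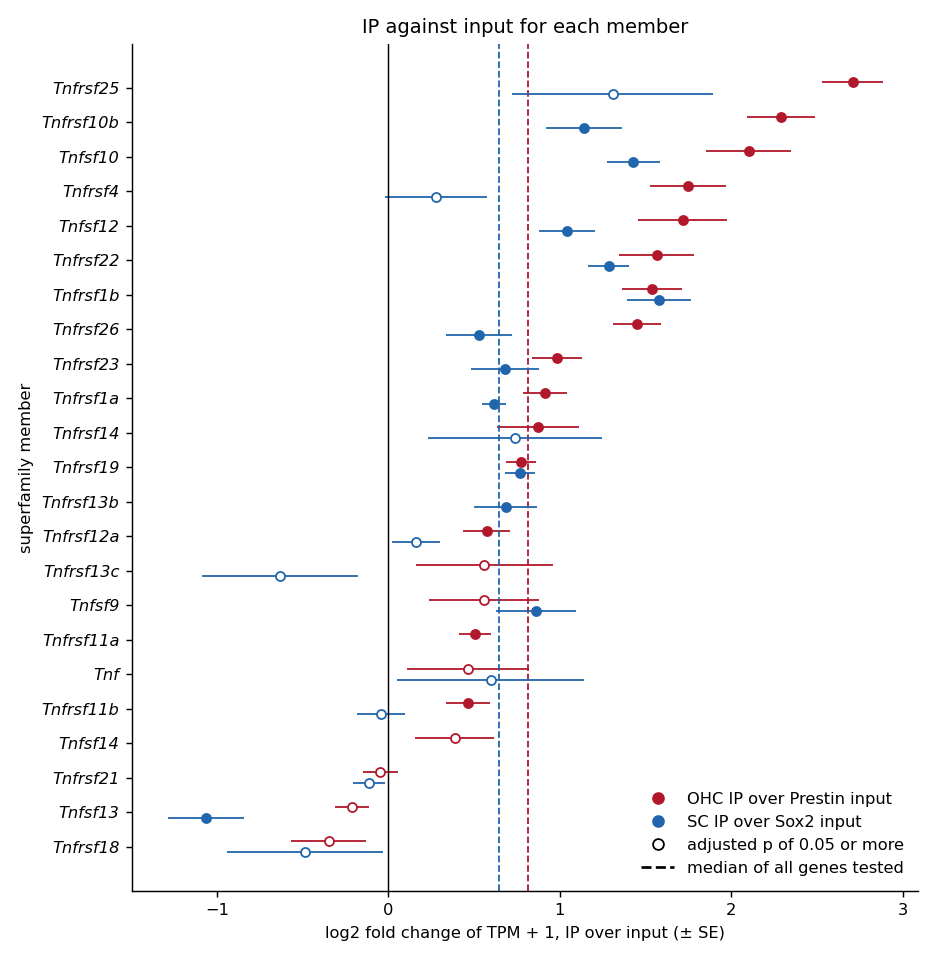
Log2 fold change of TPM + 1, IP over input (± SE), for each tested member in OHC IPs over Prestin inputs (red) and SC IPs over Sox2 inputs (blue), as the mean over the 3 conditions. Filled points passed an adjusted p of 0.05, open points did not, and dashed lines mark the medians of all genes tested, 0.82 and 0.65; Tnfrsf25 and Tnfrsf10b lie farthest right in outer hair cells, and Tnfsf13 farthest left in supporting cells.

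The enrichments differed between the cell types in 5 of 23 members (21.7%), near the 21.6% of all genes called in either direction. Tnfrsf4 (1.47 ± 0.36, adjusted p = 0.00602), Tnfrsf10b (1.15 ± 0.31, adjusted p = 0.0099) and Tnfrsf26 (0.92 ± 0.22, adjusted p = 0.00564) were enriched more in outer hair cells than in supporting cells. Tnfsf13 was also higher in outer hair cells by this difference (0.85 ± 0.23, adjusted p = 0.0102), as 14% of all genes were. It was enriched in neither, with -0.21 over input in outer hair cells and -1.07 in supporting cells. In control libraries alone these values were -0.59 and -0.42. Tnfrsf13b, a receptor of B cells that Tnfsf13 binds, was enriched less (-0.74 ± 0.20, adjusted p = 0.00991), as 7.62% of all genes were, with 0 to 0.862 TPM in outer hair cell IPs and 0.327 to 2.01 TPM in supporting cell IPs. It reached 1 TPM in 3 of the 32 libraries, all supporting cell IPs. It thus entered the test only through the group where it was higher, and no conclusion is drawn from its call. All 5 calls were kept whichever of 32 libraries was left out. Without outer hair cell control replicate 1, 10 of 23 passed, 9 higher and 1 lower, and all genes split 3800 higher to 1753 lower of 19410. The 5 gained were Tnfsf12 (0.94, adjusted p = 0.000231), Tnfsf10 (0.91, adjusted p = 0.00182), Tnfrsf11b (0.58, adjusted p = 0.0217), Tnfrsf12a (0.51, adjusted p = 0.041) and Tnfrsf13c (1.49, adjusted p = 0.0466). Under median-of-ratios scaling the 3 calls left were all higher, and that of Tnfrsf4 was lost (adjusted p = 0.108), as it was with a pseudocount of 0.1 (adjusted p = 0.105). Tnfrsf13b was not among the members tested under that scaling. With the homogenate as a pair Tnfrsf11b passed as well (0.51 ± 0.10, adjusted p = 0.00521), against adjusted p = 0.0675 without it.

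Between the noise response of an IP and that of its inputs limma called no member. In outer hair cells it called 0 of 22 at 6 h, where 2.42% of all genes passed, and 0 of 22 at 24 h, where 1.04% did. At an unadjusted p under 0.05 there were 3 members at 6 h, against 19.6% of all genes, and 2 at 24 h, against 17.5%. In supporting cells it called 0 of 21 at 6 h (0.269% of all genes) and 0 of 21 at 24 h (0.0485%), with 6 members (10.9% of all genes) and 1 member (5.52%) at an unadjusted p under 0.05.

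The remaining expressed members were low. Tnfrsf14, which binds Tnfsf14 (LIGHT), was 1.01 to 9.45 TPM in outer hair cell IPs, and Tnfsf14 reached 1 TPM in 3 libraries, all of them outer hair cell IPs. Tnfrsf11a (RANK), the signalling receptor that Tnfrsf11b competes with, was 0.735 to 1.45 TPM in outer hair cell IPs and 0.2 to 0.55 TPM in their inputs. That difference passed (0.50 ± 0.09, adjusted p = 0.000164), though it lay below the median of 0.82 for all genes. None of these inputs reached 1 TPM, so Tnfrsf11a entered the test through the IPs alone. Tnfrsf13c spanned 0 to 5.57 TPM and Tnfrsf18 0 to 6.36 TPM over all libraries, and neither passed a noise test. The 9 members under the bar were Tnfsf4, Tnfsf8, Tnfsf11, Tnfsf13b, Tnfsf15, Tnfsf18, Tnfrsf8, Tnfrsf9 and Tnfrsf17. Among them are the ligands of Tnfrsf4, Tnfrsf11a, Tnfrsf13c, Tnfrsf18 and Tnfrsf25, all receptors that passed the bar. Their highest library stood at 0 TPM for Tnfsf4, 1.14 TPM for Tnfsf8, 0.637 TPM for Tnfsf11, 0.938 TPM for Tnfsf13b, 0.552 TPM for Tnfsf15, 0.986 TPM for Tnfsf18, 0.0991 TPM for Tnfrsf8, 0.201 TPM for Tnfrsf9 and 0.889 TPM for Tnfrsf17. Tnfsf11 is the RANK ligand that Tnfrsf11b binds.

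Superfamily genes with other symbols showed no noise call over controls. Of 14 (such as Fas, Ltbr, Ngfr and Cd40), 8 were tested in each IP and 4 in the whole cochlea, and limma called 0 in each noise comparison with controls. At an unadjusted p under 0.05 there were 1 and 3 in outer hair cell IPs at 6 h and 24 h, against 26.2% and 26.3% of all genes. There were 0 and 1 in supporting cell IPs, against 18.1% and 11.5%, and 0 and 2 in the whole cochlea, against 25% and 15.5%. The smallest p in outer hair cell IPs at 24 h was that of Ltbr, the lymphotoxin beta receptor (0.60 ± 0.16, adjusted p = 0.0629). Against input, 6 of 8 were higher in outer hair cell IPs, where 68.5% of all genes were, led by the death receptor Fas (1.68 ± 0.09, adjusted p = 6.07e-10), and 5 of 9 in supporting cell IPs, where 55.2% were, led by Relt (1.59 ± 0.17, adjusted p = 2.21e-05). By the difference of enrichments, Fas (0.97 ± 0.21, adjusted p = 0.00237) and Lta (1.29 ± 0.42, adjusted p = 0.0318) of 11 tested were higher in outer hair cells, where 14% of all genes were.

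Downstream of the receptors, 31 adaptors, kinases and regulators were followed. Of 28 tested in the whole cochlea, 2 rose at 6 h, against 3.83% of all genes. They were Birc3, an inhibitor of apoptosis that ubiquitinates RIP kinases (0.58 ± 0.10, adjusted p = 0.00323), and Ripk1, the kinase at the fork of survival and death (0.65 ± 0.16, adjusted p = 0.0228). At 24 h only Birc3 of those 28 passed (0.72 ± 0.10, adjusted p = 0.000475), against 3.78% of all genes. The median of the list was -0.07 at 6 h and 0.06 at 24 h, beside -0.09 and 0.02 for all genes. The outer hair cell IPs had 2 of 31 lower at 6 h, against 4.77% of all genes, Rbck1 of the linear ubiquitin ligase (-1.01 ± 0.22, adjusted p = 0.0414) and the adaptor Tradd (-0.82 ± 0.19, adjusted p = 0.0492), and 1 at 24 h, against 5.14%, the kinase Ikbkb (-0.92 ± 0.18, adjusted p = 0.0321). For supporting cell IPs limma called 0 of 31 at both times. At an unadjusted p under 0.05 were 4 and 2, against 18.1% and 11.5% of all genes. There the smallest p was that of Tnfaip3, which ends NF-kB signalling, at 6 h (2.29 ± 0.57, adjusted p = 0.125).

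Of 14 genes that TNF can induce, 10 rose in the whole cochlea at 6 h (median 1.04) and 7 at 24 h (median 1.03), against 3.83% and 3.78% of all genes and beside the medians of all genes of -0.09 and 0.02. Those with the smallest p at 6 h were the chemokine Ccl2 (3.98 ± 0.44, adjusted p = 7.91e-05), the NF-kB subunits Relb (1.04 ± 0.13, adjusted p = 0.000165) and Nfkb2 (1.05 ± 0.15, adjusted p = 0.000551), and the NF-kB partner Bcl3 (1.42 ± 0.21, adjusted p = 0.000745). At 24 h they were Cxcl10, a chemokine for T cells (4.49 ± 0.40, adjusted p = 1.46e-05), Ccl2 (4.35 ± 0.43, adjusted p = 2.82e-05), the adhesion molecule Icam1 (2.13 ± 0.21, adjusted p = 3.17e-05) and the growth factor Csf1 (1.30 ± 0.14, adjusted p = 7.12e-05). Of the 14, 4 rose in outer hair cell IPs at 6 h and 6 at 24 h, against 0.856% and 1.1% of all genes. Among them was Cxcl10 at 24 h (5.80 ± 0.30, adjusted p = 0.000476). In supporting cell IPs Ccl2 rose at 6 h (5.01 ± 0.33, adjusted p = 0.00975), against 0.216% of all genes. Ccl2 and Cxcl10 rose there at 24 h, against 0.108%. Many stimuli besides TNF induce these genes.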

How the data were processed

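RNA of 32 libraries in 12 groups was measured. The deposited values are TPM per gene made by the authors, and reads were mapped with TopHat to GRCm38, per the submitters' processing notes. The libraries were made with a kit that keeps strand, per the labels' protocols. Neither the counting tool nor its annotation or use of strand is given in the sources used here. TPM keeps no depth, so the depth behind a value is unknown, and no counting interval is given.

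From the deposited TPM, log2(TPM + 1) was fitted with limma 3.58.1 (R 4.3.3), with empirical Bayes moderation and a mean-variance trend. P was adjusted by Benjamini-Hochberg over all genes tested, with a threshold of 0.05. Genes entered with at least 1 TPM in at least 3 (outer hair cell IPs), 2 (supporting cell IPs) or 5 (inputs) libraries, in at least 3 or 2 for the IPs and inputs of Prestin or Sox2 mice fitted together, and in at least 2 for differences between the strains. Fold changes on this scale understate those of low genes. The fit of inputs held both strains with strain as a term, and the enrichments were means over the 3 conditions. Tables and figures were made with Python 3.11.15, pandas 2.3.3, numpy 2.4.6 and matplotlib 3.10.9, and the limma fits were tested on simulated data.

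The members and gene lists were chosen with earlier results of these data known. By rule, every library is given for Tnfrsf12a, Tnfsf9, Tnf, each member past the threshold in a noise comparison or an interaction, and the 4 highest and 2 lowest members of each enrichment, and from each list up to 4 genes with the smallest p are named. The labels call the samples biological replicates but tie them to no animals, so p measures the spread between libraries. The 4 differences of responses between Prestin and Sox2 libraries were added after the data were seen. IP and input of one homogenate are paired by design. Their deviations from group means correlated at 0.0209 to 0.273 over 16 pairs, 5 of them over 0.1. Alternatives left out each library in turn, scaled by median-of-ratios factors, lowered the pseudocount to 0.1, dropped the filter, added a block for replicate number or homogenate, left out both 6 h Sox2 inputs, or kept 1 strain of inputs or the controls alone. Gene positions are those of GENCODE M21 and promoters those of RefSeq.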

Additional observations from a re-analysis of the deposited data

Results flagged for a closer look

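Tnfsf9 responded differently in the IPs at 6 h, by a test of the difference itself, added after the data were seen. The outer hair cell response minus the supporting cell response was 4.98 ± 0.72 on the log2 scale (adjusted p = 0.0142), with 3 of 3 outer hair cell IPs at 6 h above their controls and 2 of 2 supporting cell IPs below theirs. In the supporting cell IPs the 6 h libraries were both listed at 0. The Sox2 inputs at 6 h were also low, at 0 and 0.0792 TPM against 1.26 and 3 TPM in their controls. The supporting cell IP response minus that of its inputs did not pass. These 4 Sox2 libraries had 15929 to 16966 genes above 0, against 17395 to 21239 in the other Sox2 libraries. What the zeros stand for was not tested.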

How the results depend on the processing

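The members past the threshold numbered 1 with no filter, 1 under median-of-ratios scaling and 1 with replicate number as a block in outer hair cell IPs at 6 h (2 as reported), and 2 with no filter and 0 with that block at 24 h (5 as reported). The block left 0 in supporting cell IPs at 6 h (2 as reported). In the whole cochlea they were 3 with the block and 1 in Sox2 inputs alone at 6 h (5 as reported), 0 in Sox2 inputs alone at 24 h (6 as reported), and 3 with the block, 1 in Sox2 inputs alone and 4 with both 6 h Sox2 inputs left out at 24 h against 6 h (7 as reported). Over input they were 8 in outer hair cell and 3 in supporting cell control libraries alone (15 and 12 as reported), and the enrichment difference had 3 under scaling (5 as reported). The replicate numbers do not pair the samples (18 pairs, r of -0.0979 to 0.1005, 1 over 0.1). Each pair of supporting cell groups shares 1 number, and their block fit, which has 1 residual degree of freedom, and the fits without both 6 h Sox2 inputs were added after the data were seen. Pairing IP and input by homogenate kept 31 of 32 calls. The other settings kept 57 of 60 calls (pseudocount of 0.1), 55 of 60 (no filter), 38 of 57 (scaling), 11 of 27 (replicate block), 13 of 18 (Prestin inputs alone), 2 of 18 (Sox2 inputs alone), 15 of 18 (both 6 h Sox2 inputs left out) and 10 of 23 (control libraries alone).

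These log2 values changed sign. Under median-of-ratios scaling the outer hair cell IP over input was -0.50 for Tnfrsf12a, -0.14 for Tnfrsf1a, -0.10 for Tnfsf9, -0.19 for Tnfrsf19 and -0.61 for Tnfrsf11b. The supporting cell IP over input was -0.75 for Tnfrsf12a, -0.28 for Tnfrsf1a and -0.055 for Tnfrsf19, and the outer hair cell minus supporting cell response of Tnfrsf12a at 24 h was 0.0087. In control libraries alone Tnfsf9 was -0.14 in outer hair cells, and Tnfrsf12a was -0.23 and Tnfrsf23 -0.036 in supporting cells. In Prestin inputs alone Tnfsf9 was 0.89 at 6 h and -0.31 at 24 h over 6 h, and without both 6 h Sox2 inputs 0.77 and -0.43. The cause was not tested.

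With 1 library left out at a time, the calls ranged over 1 to 3 and 0 to 5 in outer hair cell IPs at 6 h and 24 h, 0 to 1 and 0 to 0 in supporting cell IPs, 3 to 5, 5 to 6 and 6 to 7 in the whole cochlea, 14 to 17 and 11 to 13 over input, and 5 to 10 for the enrichment difference. They were 0 to 1 for supporting cell IP response minus input response at 6 h and 0 to 0 for the other 3 of that kind, 1 to 2 and 0 to 1 for outer hair cell minus supporting cell responses, and 0 to 0 for Prestin minus Sox2 inputs. Tnfsf9 ranged over -0.79 to 0.23 in supporting cell IPs at 24 h and -0.43 to 0.20 in the whole cochlea at 6 h. Supporting cell IPs at 6 h lost Tnfrsf12a or Tnfrsf1a in each of these fits.

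Over all genes, fits with 1 library left out called 81 to 798 and 70 to 986 in outer hair cell IPs at 6 h and 24 h, 4 to 75 and 0 to 30 in supporting cell IPs, and 783 to 1619, 443 to 870 and 1740.0 to 2441 in the whole cochlea. Under the other settings the calls fell to 415, 307 and 91 (no filter, scaling, block) in outer hair cell IPs at 6 h, against 940 as reported, and to 573 and 106 (scaling, block) at 24 h, against 1041. In supporting cell IPs at 6 h they were 242 (pseudocount of 0.1), 66 (no filter) and 0 (block), against 122, and at 24 h 0 (block), against 33. In the whole cochlea they were 643, 661 and 151 (block, Prestin, Sox2) at 6 h, against 1213, 329, 0 and 995 (block, Sox2, both 6 h Sox2 inputs left out) at 24 h, against 631, and 1016, 1354 and 517 (block, Prestin, Sox2) at 24 h over 6 h, against 2284. Supporting cell IPs over input had 6900 (scaling) and 4655 (controls alone), against 10746. IP minus input responses had 35, 47 and 28 (pseudocount, scaling, homogenate block) in outer hair cells at 6 h, against 420, and 26, 24 and 20 at 24 h, against 181. They had 79 and 3 (no filter, homogenate block) in supporting cells at 6 h, against 50, and 5, 33 and 2 (pseudocount, no filter, homogenate block) at 24 h, against 9. The outer hair cell minus supporting cell responses had 148 (scaling) at 6 h, against 98, and 49 (no filter) at 24 h, against 32. With TPM alone, what depth limits cannot be given.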
